A study of Mus musculus with 13 samples.

Results

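Dok6 is an adaptor gene of the Dok family, described here together with 9 genes for related adaptors and for the neurotrophin and glial cell line-derived neurotrophic factor (GDNF) ligands and receptors: Dok4, Dok5, Bdnf, Ntf3, Ntrk2, Ntrk3, Ret, Gfra1 and Gfra2. The 10 genes were taken by symbol from the authors' deposited tables, and Dok6 was picked because it fell strongly in both mutant groups. Grn-/-;GRNtg compared with wild type lists all 10 among 14961 genes, and the mutant groups compared with each other list all 10 among 17562. Grn+/- compared with wild type lists 13482 genes, 9 of the 10 among them, and Ntf3 is the one not listed.

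Cortical RNA of 13 male mice, all aged 18 months, was sequenced. Wild-type mice (Grn+/+, n = 5) have both copies of Grn, the gene for progranulin, and Grn+/- mice (n = 4) have 1 copy. Mice labelled Grn-/-;GRNtg (n = 4) are, by that genotype, without mouse Grn and with human GRN as a transgene. No source used here gives the transgene's promoter or the strain of any group. The files hold comparisons between groups and no value per mouse, so each gene has 1 mean normalized count over the libraries, and in each comparison a log2 fold change and a standard error (SE). A gene is called where the authors' adjusted p is under 0.05, and 95% intervals were computed here from the deposited SE.

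Neurotrophins are secreted proteins that keep neurons alive and tune synapses. BDNF binds the receptor kinase TrkB (encoded by Ntrk2), NT-3 (Ntf3) binds TrkC (Ntrk3), and ligands of the GDNF family bind a GFRα co-receptor that engages the kinase Ret. Activated receptors are phosphorylated on tyrosines, to which adaptors such as the Dok, Shc and Frs2 proteins bind and pass the signal to the Ras-ERK and PI3K-AKT pathways. Dok4, Dok5 and Dok6 were described as substrates of Ret, and Dok5 and Dok6 also bind Trk receptors.

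Mouse Grn, the check of the labels, was at 63.6% of wild type in Grn+/- and 24.7% in Grn-/-;GRNtg, from log2 fold changes of -0.65 ± 0.077 and -2.02 ± 0.081 in the authors' deposited tables. The 95% interval in Grn-/-;GRNtg was 22.1% to 27.6%, so Grn signal remained in the group labelled as having no mouse copy, and its source was not tested. All 6 markers of cortical excitatory neurons were listed, with mean normalized counts of 36092 for Slc17a7 and 79957 for Camk2a in the authors' deposited tables. All 6 striatal markers were listed too, Ppp1r1b with 2614 in the authors' deposited tables. None of the 6 was called, at a median of -0.03 in Grn+/- (4 of 6 negative) and 0.17 in Grn-/-;GRNtg (0 of 6 negative), and 0 had an unadjusted p under 0.05 against wild type by the authors' Wald test. Between the mutant groups their median was 0.20 (0 of 6 negative), and 2 had an unadjusted p under 0.05 by that test. Of 4 hippocampal markers 0 were called in any comparison. In Grn-/-;GRNtg against wild type they ranged from -0.30 to 0.30 (2 of 4 negative), and 3 had an unadjusted p under 0.05 by that test. Of 5 markers of oligodendrocyte precursors 1, Gpr17, was called lower in Grn+/-, where 4.51% of all genes were, and 5 of 5 were negative there. For Gpr17 the authors' deposited table gives -0.49 ± 0.094 in Grn+/-. Markers of oligodendrocytes were negative in 5 of 5 in both comparisons with wild type. Their medians were -0.14 in Grn+/- and -0.22 in Grn-/-;GRNtg, and 0 were called. The part of these shifts in the values of the 10 genes was not tested. In a tissue sample, fewer cells of a type and less RNA per cell cannot be told apart. Where nothing says how mice were bred or batched, p-values measure only the spread between these mice.

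Levels differed widely between the 10 genes. Per kilobase of annotated exon, the mean normalized count was 667 for Ntrk2, 398 for Gfra2, 261 for Dok5 and 137 for Gfra1. It was 106 for Dok4, 93.7 for Bdnf and 51.9 for Ntrk3. The lowest were Ret at 13.9, Ntf3 at 11.1 and Dok6 at 4.08, against a median of 108 over the genes that stand in all 3 tables and have an annotated length. Dok6 had a mean normalized count of 56.4 over 13804 bases of exon. Annotated exon joins all transcripts of a gene, 30170 bases for Ntrk3 and 19292 for Ntrk2. The order of the genes depends on this choice of length.

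**Figure D1:**
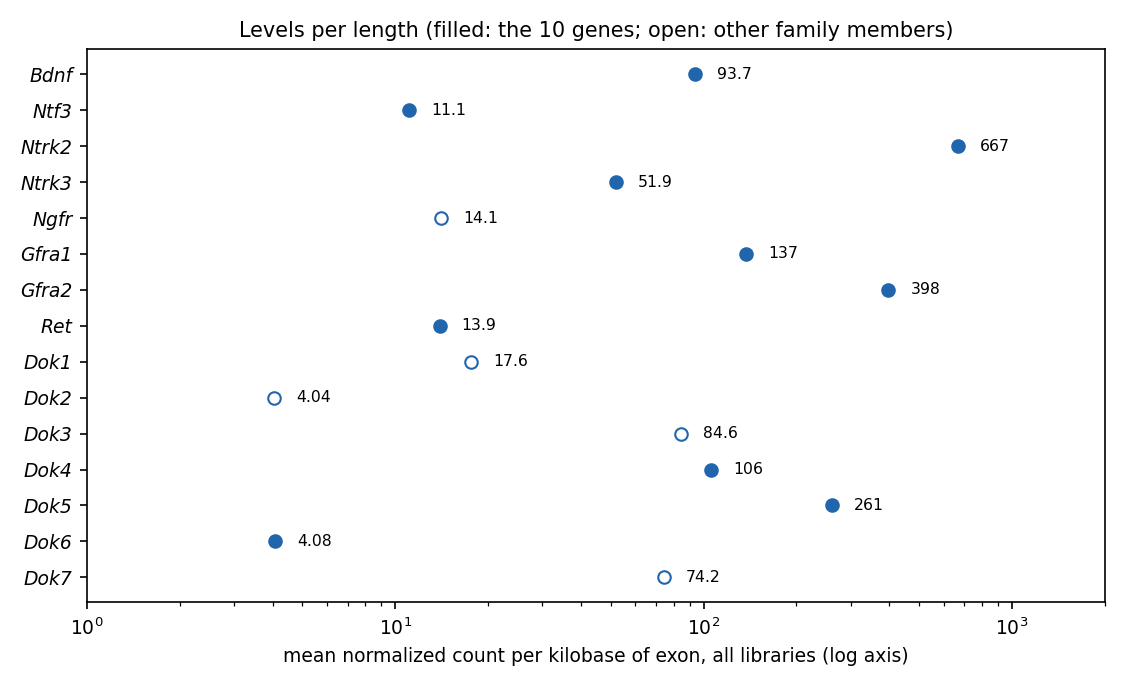
Mean normalized count per kilobase of exon (log axis) for the 10 genes (filled points) and other family members (open points), each point being the authors' mean over libraries. Of the genes plotted Ntrk2 stands highest at 667, and Dok6 at 4.08 and Dok2 at 4.04 stand lowest.

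Dok6 (chromosome 18, 89292424 to 89769528, minus strand, GRCm38) encodes an adaptor with a membrane-binding PH domain and a phosphotyrosine-binding PTB domain. Its transcript was at 48.2% of wild type in Grn+/- and at 58.6% in Grn-/-;GRNtg. The log2 fold changes were -1.05 ± 0.135 and -0.77 ± 0.136 in the authors' deposited tables, with 95% intervals of 40.1% to 58.0% and 48.8% to 70.5% of wild type. These values chose the gene and are given as a description, with no test. Of all genes 4.51% were called lower in Grn+/- and 3.05% in Grn-/-;GRNtg, and nothing is read from that for Dok6. Of 13482 genes in the Grn+/- comparison none had a lower log2 fold change, and in Grn-/-;GRNtg Dok6 was number 6 from the lowest of 14961. For Grn-/-;GRNtg relative to Grn+/- the authors' deposited table gives 0.28 ± 0.133, a level of 122%. That value is the difference of the pair that chose the gene, so it has no test here either. Gm16297 and Gm22694 are annotated within Dok6 on the opposite strand.

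The SE of Dok6 was close to the highest that the table holds. Deposited SEs end at 0.138 in all 3 tables, and that of Dok6 in Grn+/- was 98.1% of this ceiling. Among 717 genes with a mean normalized count from 45.2 to 70.4, Dok6 included, 56.3% had a smaller SE in that comparison. Their median log2 fold change was 0.00, and the lowest besides Dok6 was -0.86. Small SEs also occur at very low counts, and Gdf15, with 1.09 mean normalized counts, has an SE of 0.051 between the mutant groups by the authors' deposited table. No source used here says whether fold changes were drawn towards 0 by a prior. If they were, every log2 fold change, percent of wild type and 95% interval given here is a shrunken value.

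The related adaptors Dok4 and Dok5 were not called in any of the 3 comparisons. Dok5 (chromosome 2, 170731807 to 170879769, plus strand) was at 102% of wild type in Grn+/- (95% interval 92.5% to 112%) and at 108% in Grn-/-;GRNtg (98.1% to 118%), from 0.02 ± 0.070 and 0.11 ± 0.069 in the authors' deposited tables. Dok4 (chromosome 8, 94863828 to 94876330, minus strand) was at 93.6% (79.8% to 110%) and at 103% (88.0% to 121%), from -0.09 ± 0.118 and 0.05 ± 0.118 in the authors' deposited tables. Dok4 overlaps Polr2c, an RNA polymerase II subunit gene on the opposite strand, and no source used here gives the strand setting of the counting. Polr2c had 0.02 ± 0.058 and -0.10 ± 0.058 against wild type in the authors' deposited tables, and neither was called.

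**Figure D2:**
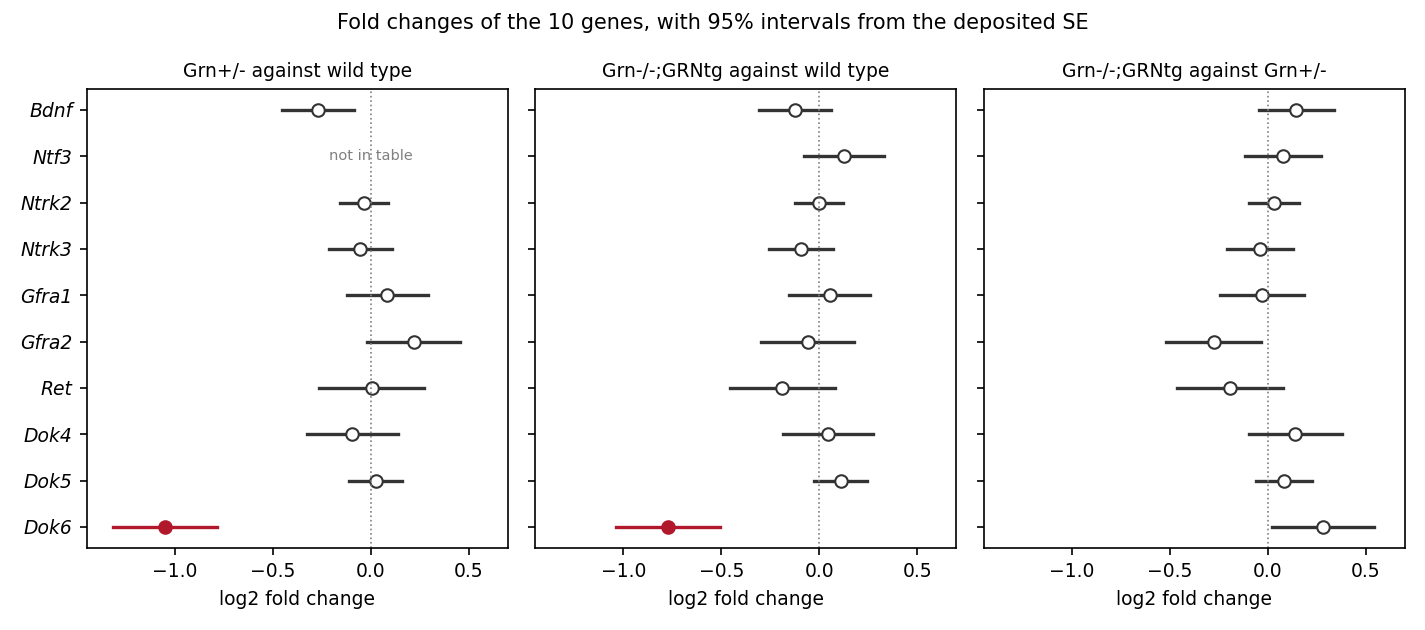
Log2 fold change of the 10 genes (points) with 95% intervals (bars) in the 3 comparisons, filled red where the authors' adjusted p is under 0.05. Dok6, which was chosen for it, lies at -1.05 and -0.77 against wild type, and the other genes lie between -0.27 and 0.22 there.

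The other genes did not pass the test. Without Dok6, 0 of 8 members were called in Grn+/- against wild type by the authors' Wald test, where 6.8% of all genes were called (2.29% higher). At an unadjusted p under 0.05 there was 1, Bdnf. In Grn-/-;GRNtg against wild type 0 of 9 were called, where 4.87% of all genes were (1.81% higher), and 0 had an unadjusted p under 0.05. Between the mutant groups 0 of 9 were called, where 0.467% of all genes were (0.148% lower, 0.319% higher), and 1 had an unadjusted p under 0.05. The medians without Dok6 were -0.01, 0.00 and 0.03 on the log2 scale, beside 0.01, 0.01 and 0.00 over all genes.

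Among the ligands, Bdnf came nearest to the threshold. It lies on chromosome 2 (109674700 to 109727007, plus strand), overlapped by Gm45346 on the opposite strand. In Grn+/- it was at 82.9% of wild type (95% interval 72.9% to 94.2%). The authors' deposited table gives -0.27 ± 0.094 (adjusted p = 0.056). With fold changes centred on the median of all genes its adjusted p was 0.047, and over all settings tried it lay between 0.047 and 0.71. Its level in Grn-/-;GRNtg was 91.7% (80.7% to 104%), and the authors' deposited table gives -0.12 ± 0.094 (adjusted p = 0.47). Ntf3 (chromosome 6, 126101412 to 126166910, minus strand) was at 109% in Grn-/-;GRNtg (94.8% to 126%), and the authors' deposited table gives 0.13 ± 0.103 (adjusted p = 0.51). Its Grn+/- value of 0.05 is the difference of its other deposited log2 fold changes and has no SE. The authors' deposited tables give Ntf3 a mean normalized count of 19.0.

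The Bdnf gene has several start sites, each with a promoter of its own, and the tables give 1 value for all of them. The 250 bases before one of these starts (chr2:109692186-109692435, plus strand, GRCm38.p6, RefSeq) are shown because they hold the half-site CGTCA of the cAMP response element, through which activity and CREB act on transcription. The same stretch before the start of Fos (chr12:85473640-85473889, plus strand) is shown beside it, since Fos belongs to the activity-induced genes described further on. Capitals mark CGTCA or its reverse complement TGACG, searched on both strands.
Bdnf: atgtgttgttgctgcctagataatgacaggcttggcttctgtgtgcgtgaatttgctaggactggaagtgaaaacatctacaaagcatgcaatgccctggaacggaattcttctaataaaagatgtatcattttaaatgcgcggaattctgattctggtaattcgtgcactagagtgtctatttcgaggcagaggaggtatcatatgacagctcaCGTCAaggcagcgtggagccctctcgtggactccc
Fos: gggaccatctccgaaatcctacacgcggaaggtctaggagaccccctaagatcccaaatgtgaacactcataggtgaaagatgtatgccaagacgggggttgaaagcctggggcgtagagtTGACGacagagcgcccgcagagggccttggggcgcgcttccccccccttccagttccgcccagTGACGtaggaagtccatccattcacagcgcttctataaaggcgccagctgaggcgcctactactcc
The half-site starts 35 bases before the start of Bdnf, and 129 and 66 bases before that of Fos. Of all 32851 windows of this length from RefSeq, 17.8% hold it. By gene, 5347 of 27025 hold it in at least 1 window. Of the 10 genes 4 matched the table, with 11 windows, and the window shown was the 1 that held it. Of the 10 activity-induced genes 5 matched, and 3 of these, Fos, Homer1 and Egr2, held it in at least 1 window. Windows of Egr2 overlap and hold the same sites, so a share of windows is not given for these genes. A match says only that these letters are there.

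Neither Trk receptor was called. Ntrk2, for TrkB (chromosome 13, 58806569 to 59133970, plus strand), was at 97.7% of wild type in Grn+/- (95% interval 89.8% to 106%) and at 99.9% in Grn-/-;GRNtg (91.8% to 109%). Its log2 fold changes of -0.03 ± 0.062 and 0.00 ± 0.062 in the authors' deposited tables had the smallest SEs of the 10 genes. It shares positions with 4930415C11Rik, Gm34245 and Gm47423 on the opposite strand. Ntrk3, for TrkC (chromosome 7, 78175959 to 78738012, minus strand), was at 96.4% (86.2% to 108%) and 93.8% (83.8% to 105%), from -0.05 ± 0.082 and -0.09 ± 0.082 in the authors' deposited tables. The tables sum the full-length and truncated forms of both receptors, and astrocytes hold mostly truncated TrkB. Of 6 astrocyte markers 5 were negative in each comparison with wild type, with medians of -0.13 in Grn+/- and -0.14 in Grn-/-;GRNtg. In Grn+/- 2 of them, Gja1 and Slc1a2, were called lower, where 4.51% of all genes were. In Grn-/-;GRNtg 0 were called. The part of these shifts in the Ntrk2 values was not tested.

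Ret (chromosome 6, 118151745 to 118197718, minus strand) was at 100.3% of wild type in Grn+/- (95% interval 83.2% to 121%) and at 87.8% in Grn-/-;GRNtg (72.8% to 106%), from 0.00 ± 0.138 and -0.19 ± 0.138 in the authors' deposited tables. Its SE in Grn+/- was at 99.8% of the ceiling. Gfra1, the co-receptor for GDNF (chromosome 19, 58235604 to 58455909, minus strand, overlapped by Gm16277), was at 106% (91.9% to 122%) and 104% (90.0% to 120%), from 0.08 ± 0.105 and 0.05 ± 0.105 in the authors' deposited tables. Gfra2, the co-receptor for neurturin (chromosome 14, 70890120 to 70979838, plus strand), was at 116% of wild type in Grn+/- (98.6% to 137%). The authors' deposited table gives 0.22 ± 0.121 there (adjusted p = 0.30), and the level in Grn-/-;GRNtg was 96.0% (81.4% to 113%). From Grn+/- to Grn-/-;GRNtg the authors' deposited table has Gfra2 at -0.28 ± 0.124 (p = 0.026 unadjusted by the Wald test, adjusted p = 0.46).

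The pattern of Dok6 was compared with that of 12531 other genes that stand in all 3 tables with a mean normalized count of at least 50. Likeness was the distance between the pairs of log2 fold changes in 2 comparisons, Grn+/- and Grn-/-;GRNtg, which share the wild-type mice. The nearest were Nbeal1 (distance 0.29), Ago3 (0.32), Prex2 (0.36), Cbl (0.37) and Sesn3 (0.38). Nbeal1 encodes a BEACH-domain protein and Ago3 an Argonaute protein. Prex2 encodes an exchange factor for Rac, and Sesn3 a stress-induced sestrin. Cbl encodes a ubiquitin ligase that marks activated receptor kinases for degradation. In the authors' deposited tables Cbl had -0.71 ± 0.137 and -0.64 ± 0.137. Prex2 had -0.73 ± 0.119 and -0.61 ± 0.119 in the same authors' deposited tables. These genes were chosen by their values and have no test here.

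Dok6 and the 5 nearest genes all have long transcripts. The reference transcript, the coding transcript with the longest reading frame in GENCODE M21, has 10099 bases for Dok6, of which 996 are coding and 8711 lie in the 3′ untranslated region. For the 5 others it has 9125 to 15731 bases, percentiles 97.2 to 99.7 of all genes with a length, and the median over genes that stand in all 3 tables is 3117. Of the other members Ntrk2 is the longest by this rule, with 8744 bases, and Dok5 has 1768 and Dok4 2590. For Ntrk3 the rule gives 2774 bases, 179 of them in the 3′ untranslated region, while its annotated exons cover 30170. The reference transcript can thus leave out much of a gene's exon sequence.

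Fold changes moved with transcript length across all genes. In Grn+/- against wild type 176 of 689 genes with transcripts of at least 8000 bases were called lower, which is 25.5%, against 4.53% of all 13065 genes with a length. Of 663 genes under 1000 bases 0 were called lower and 21 higher. The median log2 fold change was -0.16 in the longest class and 0.07 in the shortest. In Grn-/-;GRNtg against wild type 13.1% of 724 genes in the longest class were called lower, against 3.14% of all with a length. Spearman's rho between transcript length and log2 fold change was -0.34 and -0.21 across genes, which share libraries and are not independent. With a linear trend of the Wald statistics on transcript length and GC content removed, Dok6 was at -0.88 in Grn+/- and -0.66 in Grn-/-;GRNtg, and Ntrk2 turned to 0.03 and 0.04.

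**Figure D3:**
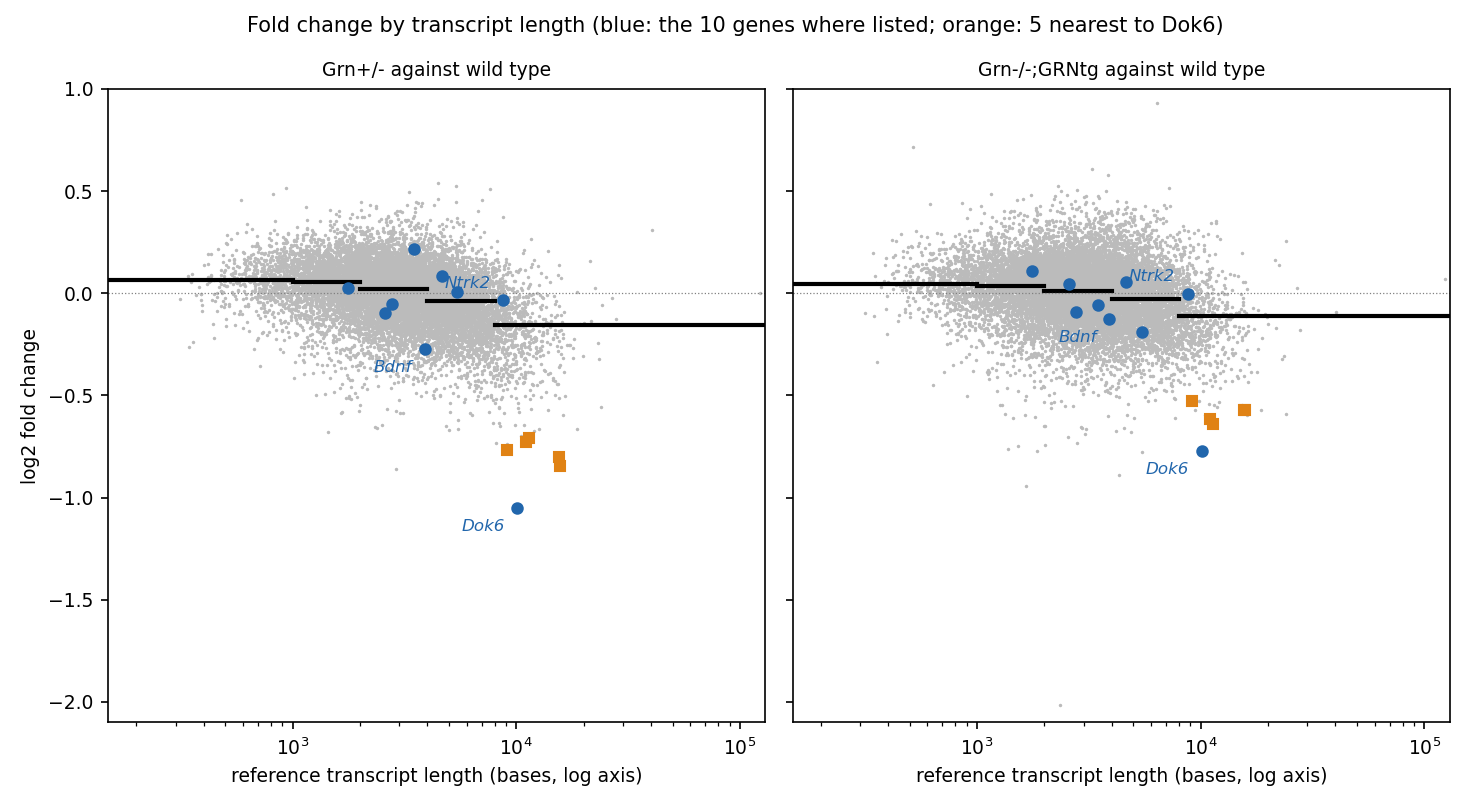
Log2 fold change against reference transcript length (log axis) for genes in both tables against wild type, with black lines at the median of each length class, blue points for the 10 genes where listed and orange squares for the 5 nearest to Dok6. The median falls from 0.07 to -0.16 in Grn+/-, and Dok6, which was chosen for its fold change, lies at -1.05.

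Noncoding RNAs kept in the nucleus, taken as a sign of RNA quality, had log2 fold changes that were negative in 8 of 8 genes in both comparisons with wild type. In Grn+/- 4 of them were called lower, Malat1, Kcnq1ot1, Mirg and Rian, and in Grn-/-;GRNtg 1, Malat1, was, where 4.51% and 3.05% of all genes were called lower. Scaled to the robust spread, 0 were called in either, with Malat1 at adjusted p = 0.39 and 0.21. Reads assigned to no gene had -0.22 ± 0.052 and -0.18 ± 0.052 in the authors' deposited tables. The part of these differences in the Dok6 values was not tested.

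Of the 4 other Dok genes 3 were measured in Grn+/- and 4 in Grn-/-;GRNtg, and Dok3 fell in both mutant groups. Of all genes 4.51% and 3.05% were called lower, and the 2 comparisons share the wild-type mice. Dok3 encodes an adaptor known from B cells and myeloid cells, where it restrains signalling. The authors' deposited tables give -0.59 ± 0.115 for Grn+/- (adjusted p = 9.5e-05), -0.60 ± 0.115 for Grn-/-;GRNtg (adjusted p = 0.0001) and -0.01 ± 0.120 between them. Its reference transcript has 1644 bases, and with the trend on transcript length and GC content removed Dok3 was at -0.64 in both. Its adjusted p was 0.14 and 0.36 once Wald statistics were scaled to their robust spread. The microglial markers Cx3cr1, P2ry12, Tmem119, Csf1r and Aif1 were all listed and 0 of 5 were called in any comparison by the authors' Wald test, nor had any an unadjusted p under 0.05. Their values were from -0.18 to 0.04 in Grn+/- and from -0.14 to 0.02 in Grn-/-;GRNtg in the authors' deposited tables. In each of these comparisons 4 of 5 were negative, with medians of -0.10 and -0.04. The part of microglia in the Dok3 values was not tested. Dok1 and Dok7 were not called, and Dok2, listed in 2 tables, was not called.

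Of the 8 other neurotrophin ligands and receptors 6 were measured against wild type. By the authors' Wald test 0 of 6 were called in Grn+/- and 1 of 6 in Grn-/-;GRNtg, where 6.8% and 4.87% of all genes were. At an unadjusted p under 0.05 there were 1 and 2, and no share over all genes is given here for that threshold. Sorcs3, a sorting receptor of the VPS10 family, rose in Grn-/-;GRNtg, where 1.81% of all genes were called higher. The authors' deposited table gives Sorcs3 0.32 ± 0.095 there (adjusted p = 0.024). Scaled to the robust spread of the Wald statistics, that call was lost (adjusted p = 0.99). For Grn+/- the authors' deposited table gives Sorcs3 0.26 ± 0.095 (adjusted p = 0.080), and with the trend on gene span or on transcript length and GC content removed it was called there (adjusted p = 0.046 and 0.027). The median of the list was 0.10 and 0.11, beside 0.01 over all genes in both. Ngfr, the p75 receptor, had 0.12 ± 0.138 and 0.18 ± 0.138, and Sort1, which binds progranulin and pro-neurotrophins, had 0.06 ± 0.060 and 0.03 ± 0.060 in the authors' deposited tables. Of the 9 other GDNF family ligands and receptors 3 were measured in Grn+/- and 4 in Grn-/-;GRNtg. By the authors' Wald test 0 were called in either, where 6.8% and 4.87% of all genes were. At an unadjusted p under 0.05 there was 1 in each. Gfra4 had 0.17 ± 0.078 and 0.21 ± 0.078 in the authors' deposited tables.

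Among 25 receptor adaptors 3 fell in each comparison with wild type and 0 rose, where 4.51% and 3.05% of all genes were called lower. The medians were -0.07 and -0.06. These comparisons share the wild-type mice. For Irs2, an adaptor of insulin and IGF receptors, the authors' deposited tables give -0.60 ± 0.122 (adjusted p = 0.00018) and -0.47 ± 0.122 (adjusted p = 0.0088). Shc3, the Shc form of neurons, which binds Trk receptors, is given as -0.48 ± 0.106 (adjusted p = 0.00054) and -0.37 ± 0.105 (adjusted p = 0.017) by the authors' deposited tables. Sh2b3 restrains receptor and cytokine signalling, and the authors' deposited tables give it -0.25 ± 0.067 (adjusted p = 0.0096) and -0.24 ± 0.067 (adjusted p = 0.015). Frs2, the docking protein of Trk receptors, was at -0.14 ± 0.064 and -0.17 ± 0.064, and Gab1 at -0.32 ± 0.121 and -0.35 ± 0.121 in the authors' deposited tables, and neither was called. Scaled to the robust spread, 0 of the 25 were called against wild type.

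Among 27 kinases and GTPases of the Ras-ERK and PI3K-AKT pathways, the authors' Wald test called 0 in Grn+/-. Of all genes 6.8% were called there. At an unadjusted p under 0.05 there were 5 of the 27, a threshold for which no share over all genes is given here. Araf, a Raf kinase, was the 1 that rose in Grn-/-;GRNtg, where 1.81% of all genes were called higher. The authors' deposited table gives Araf 0.17 ± 0.053 there (adjusted p = 0.039). With the trend on transcript length and GC content removed its adjusted p was 0.053, scaled to the robust spread it was 0.99, and the change is under a minimum size of 0.3. Araf overlaps Syn1 on the opposite strand. The list's medians were 0.02 and -0.05.

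Of 10 genes that neurons induce through TrkB, ERK and activity, 6 fell in Grn-/-;GRNtg, with a median of -0.42 beside 0.01 over all genes, and 1, Homer1, fell in Grn+/-, with a median of -0.20 beside 0.01. Of all genes 3.05% were called lower in Grn-/-;GRNtg and 4.51% in Grn+/-, and whether the list differed between the mutant groups was tested only gene by gene. In Grn-/-;GRNtg 9 of the 10 were negative and the highest was at 0.21, and in Grn+/- all 10 were negative. The list was chosen with earlier results of these data known, so its counts are a description. Of 6 markers of excitatory neurons 1, Camk2a, was called lower in Grn-/-;GRNtg too, and 5 of 6 were negative, with a median of -0.12. In Grn+/- 0 were called and 4 of 6 were negative, with a median of -0.03. The part of these shifts in the values of the list was not tested. Dusp6, a phosphatase that ERK induces and that switches ERK off, had -0.11 ± 0.111 in Grn+/- and -0.73 ± 0.111 in Grn-/-;GRNtg in the authors' deposited tables. Dusp6 was lower in Grn-/-;GRNtg than in Grn+/-, and the authors' deposited table puts this at -0.63 ± 0.115 (adjusted p = 6.5e-05). Arc (-0.66 ± 0.129), Spry4 (-0.54 ± 0.114), Fos (-0.50 ± 0.129), Egr2 (-0.49 ± 0.120) and Spry2 (-0.35 ± 0.078) also fell in Grn-/-;GRNtg in the authors' deposited table. Spry2 and Spry4 encode Sprouty inhibitors of the ERK pathway, and Arc, Fos and Egr2 are early genes of neuronal activity. Homer1, which gives rise to an activity-induced short form, is given by the authors' deposited tables as -0.51 ± 0.111 for Grn+/- (adjusted p = 0.00049) and -0.33 ± 0.111 for Grn-/-;GRNtg (adjusted p = 0.054). The latter was called among genes with a mean normalized count of at least 50 (adjusted p = 0.048) and with fold changes centred on the median (0.049). Vgf and Nptx2, which BDNF also induces, and Egr1 were not called in any comparison. Scaled to the robust spread, 0 of the 10 were called against wild type.

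**Figure D4:**
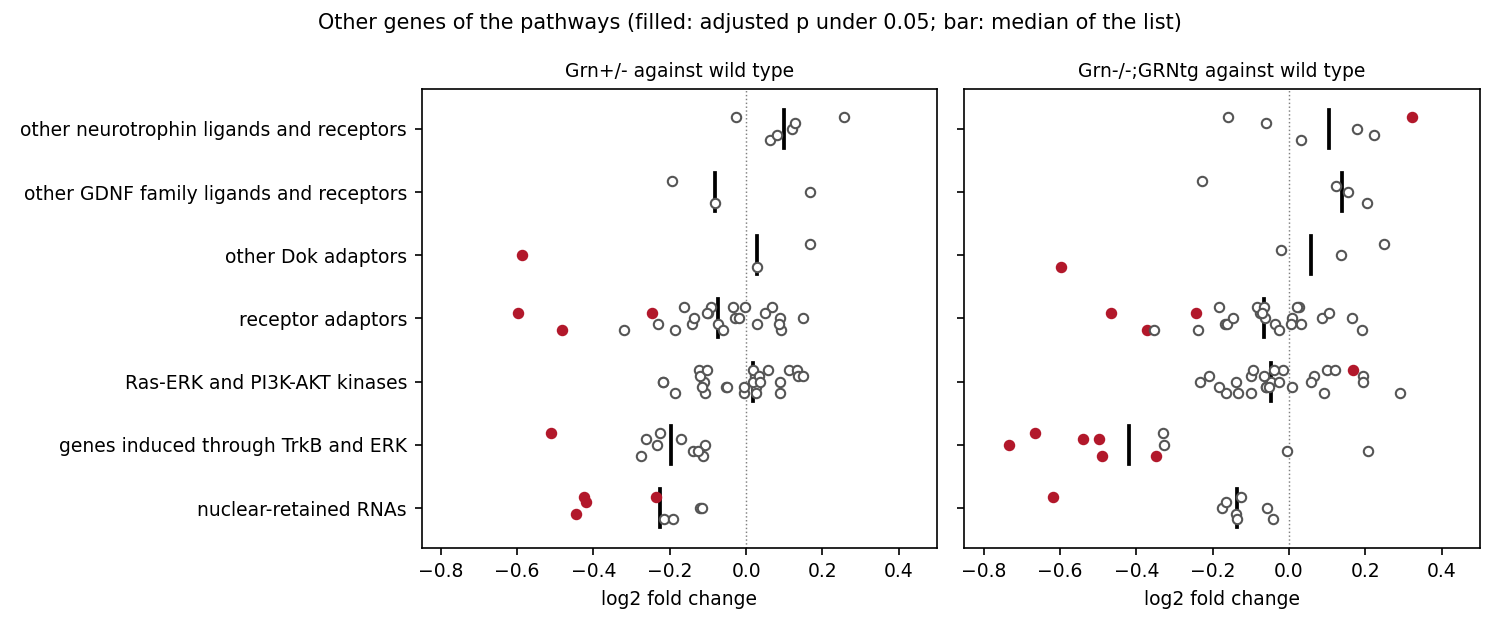
Log2 fold change of each measured gene of the 7 lists against wild type, filled red where the authors' adjusted p is under 0.05, with a bar at the median of each list. Genes induced through TrkB and ERK have medians of -0.20 and -0.42, and the kinases have 0.02 and -0.05.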

How the data were processed

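The authors compared 3 genotypes and deposited comparison tables. DESeq2 1.34.0, R 4.1.2 and the build mm10 are named, with no role, per the submitters' processing notes. Aligner, counter, annotation and strand setting: not given in the sources used here. Per the file headers, each table holds a signal (the authors' mean normalized count over libraries) and the authors' log2 fold change and SE. The deposited Wald score equalled log2 fold change over SE when recomputed. Each deposited p-value is the authors', and its Benjamini-Hochberg adjustment was recomputed with the same result. Fold changes of the 3 tables add up, as those of 1 fit do. Rows for reads in no gene and ambiguous reads (2) were left out. Depth per mouse is unknown, and mean normalized counts of genes summed to 18113972.

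Members, lists and settings were chosen with earlier results of these data known. Named are the 10 members, Grn, each gene of the pathway lists called in any table, and the 5 genes nearest to Dok6. Other genes of the lists were named after their values were seen. Lengths and positions are from GENCODE M21 (GRCm38), which matched 99.5% of the 13482 genes in all tables. Settings tried were adjustment over those genes, a mean normalized count of at least 50, centring on the median, division by the robust spread (1.4826 times the median absolute deviation), removal of a trend with gene span, and a minimum size of 0.3 on the log2 scale. Removal of a trend with transcript length and GC content was added after seeing the data. These steps were tested on simulated data. Python 3.11.15, numpy 2.4.6, pandas 2.3.3, scipy 1.17.1 and statsmodels 0.14.6 were used. Some genes of the lists are not reported here by name.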

Additional observations from a re-analysis of the deposited data

Results flagged for a closer look

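Among the genes named, the authors' deposited table of Grn-/-;GRNtg against Grn+/- called a difference between the mutant groups' effects for Grn and Dusp6. For Grn the effect in Grn-/-;GRNtg minus that in Grn+/- was -1.36 ± 0.085 (adjusted p = 5.2e-53) in the authors' deposited table. For Dusp6 it was -0.63 ± 0.115 (adjusted p = 6.5e-05) in the authors' deposited table, and it was still called once Wald statistics were scaled to their robust spread (adjusted p = 0.00093). Single mice could not be checked, since the tables hold no value per mouse.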

How the results depend on the processing

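Wald statistics had a robust spread of 1.49 and 1.56 in Grn+/- and Grn-/-;GRNtg compared with wild type, and of 1.10 between the mutant groups. With the statistics centred and divided by it, 6, 3 and 30 genes were called in place of 917, 728 and 82, members called against wild type stayed at 1 (Dok6) in Grn+/- and went from 1 to 0 in Grn-/-;GRNtg, and pathway genes called went from 9 and 13 to 0 and 0. With fold changes centred on the median, 2 members (Dok6 and Bdnf) were called in Grn+/- in place of 1. Dok6 was chosen by its values against wild type, so its calls under any setting are a description with no test. With the trend on transcript length and GC content removed, a setting chosen after seeing the data, 574 genes were called in Grn+/-. With a minimum size of 0.3 on the log2 scale, 499 and 454 genes were called against wild type. Between the mutant groups 43 genes were called with adjustment over genes in all tables and 40 with a mean normalized count of at least 50. Of the log2 fold changes of named genes under the settings, 630 kept direction and call, 37 lost the call, 6 gained it and 9 changed sign, and the cause was not tested.

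Each of the 9 was uncalled and near 0. In Grn+/- against wild type Dok5 turned to -0.00145 and Ntrk2 to 0.034 with the trend on transcript length and GC content removed, and Ret to -0.00398 with centring and -0.0080 with the robust spread. In Grn-/-;GRNtg against wild type Ntrk2 turned to 0.0050 with the span trend removed and 0.040 with the transcript trend removed. Between the mutant groups Dok3 turned to 0.0029 and 0.0033 under the same settings, and Sh2b3 to -0.0046 under the latter.

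No paired analysis was possible because the tables hold no values per mouse, and leaving out each mouse in turn was not run for the same reason. Depth per mouse is unknown, so the deposited SE is the one measure of precision given. Small SEs also occur at very low counts, as for Gdf15, so a small SE alone does not show a precise value.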
